A study of Mus musculus with 20 samples.

Results

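Ribosome biogenesis factors are the proteins that transcribe ribosomal RNA, cut and modify it, and assemble it with ribosomal proteins into the small and large ribosomal subunits. A list of 39 such mouse genes was followed here. Members were the rows of the deposited expression table whose gene identifiers map to the listed symbols. All 39 were found among the 54532 genes of the table, and all 39 passed the filter on low values (13162 genes that reached an FPKM of 1 in no fewer than 2 libraries). FPKM counts sequenced fragments relative to transcript length and to the size of the library.

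Ribosome production starts in the nucleolus, where RNA polymerase I copies the ribosomal DNA into a long precursor RNA. Small nucleolar RNAs (snoRNAs), held in protein complexes (snoRNPs), guide chemical changes of that precursor, while a large assembly called the processome folds and cuts the part that becomes the small subunit. In the liver, hepatocytes that survive the removal of tissue enlarge and divide, which calls for more ribosomes, and the transcription factor MYC is known to raise the expression of many nucleolar genes.

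The samples were RNA from C57BL/6 mice: hepatocytes of undamaged liver, hepatocytes of liver from which surgery had taken away 70% of the organ (PHx, partial hepatectomy), and hepatocyte organoids (Hep-Org). By the protocol the hepatocytes of both kinds of liver were isolated fresh, and "liver" below means these isolates. The cell type is labelled for the undamaged and the first PHx libraries and not for the second PHx libraries, which came in a later submission without undamaged samples. PHx liver was sampled at 6, 12, 24, 48 and 72 h and at 7, 14 and 21 d. Organoids were hepatocytes grown in Matrigel, a basement-membrane gel, and collected at a passage whose number is not stated. Each of the 10 groups had 2 libraries, named replicate 1 and replicate 2. No mutant or transgene was named, and neither age nor sex was given. No label says whether the paired libraries were independent animals or cultures, but the organoid pair differed in sex-linked genes (below). The p-values therefore reflect the spread of these libraries alone, and that spread may be technical for the liver pairs.

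Read numbers recovered from the values came to 13.7 to 41.3 M per library (M, 1000000), and mitochondrial genes took 3.17% to 40.7% of them, with the highest share in the second 6 h library. The summed FPKM of 12 hepatocyte markers was 25536 to 79401 in the liver libraries, against 4796 and 1147 in the organoids, where all 12 were called lower than in undamaged liver. The summed level of 8 cholangiocyte markers was 4457 and 2741 in the organoids and 8.05 to 338 in liver. The label of the organoids as hepatocyte organoids therefore stands beside low hepatocyte markers and high bile duct markers. The undamaged pair differed widely in Saa1, an acute-phase protein (19.9 and 20927 FPKM), and in summed macrophage markers (41.4 in one and 1065 in the other). The X-inactivation RNA Xist reached 13.6 to 23.7 FPKM at 48 h, 72 h and 7 d, where all 6 libraries had the Y-linked Ddx3y at 0, and did not exceed 0.137 in the other 12 liver libraries. In organoids Xist was near 0 in replicate 1 and at 25.3 in replicate 2, with Ddx3y at 9.90 and 0.00756. The sex of the cells thus differed between the organoid libraries, and its part in their values was not tested. In bulk RNA of this kind, fewer cells of a type and less RNA per cell cannot be told apart.

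The promoters of the members were read from RefSeq (GRCm38.p6), as the 300 bases from 250 before to 50 after each gene's start, and 35 of the 39 members had an entry. Bop1, Fbl, Npm1 and Rrs1 had none. Of the 35, 3 had more than 1 window, and a gene was counted if any of its windows held the letters searched for. The E-box CACGTG, the letters that MYC with its partner MAX is known to bind, reads the same on both strands. It occurred in 8 of these 35 members (22.9%), against 11.8% of the 9163 tested genes with a window and 8.09% of all 27025. The 9 copies are shown because Myc itself was higher at 6 h and in organoids, each in 30 bases with the E-box in capitals.
Nop2 at chr6:125131811-125131840, plus strand: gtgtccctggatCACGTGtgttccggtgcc
Ltv1 at chr10:13193092-13193121, minus strand: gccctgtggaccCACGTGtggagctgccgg
Utp20 at chr10:88826765-88826794, minus strand: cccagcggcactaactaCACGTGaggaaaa
Pes1 at chr11:3963965-3963994, plus strand: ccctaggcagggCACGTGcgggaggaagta
Mybbp1a at chr11:72441347-72441376, plus strand: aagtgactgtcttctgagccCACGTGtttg
Tsr1 at chr11:74898092-74898121, plus strand: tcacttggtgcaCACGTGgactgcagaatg
Rrn3 at chr16:13780472-13780501, plus strand: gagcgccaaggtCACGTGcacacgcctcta
Rrn3 at chr16:13780639-13780668, plus strand: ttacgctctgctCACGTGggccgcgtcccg
Wdr43 at chr17:71616220-71616249, plus strand: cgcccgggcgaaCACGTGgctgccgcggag
In Nop2 and Rrn3 the E-box lay before the start, 60 bases upstream in Nop2 and 215 and 48 bases upstream in Rrn3, and in the other 6 genes it lay within 50 bases after it. The 250 bases before the start of Nop2, of Rrn3 and of Nop56, a member without the motif, are printed for comparison, again with any E-box in capitals.
Nop2 at chr6:125131633-125131882, plus strand: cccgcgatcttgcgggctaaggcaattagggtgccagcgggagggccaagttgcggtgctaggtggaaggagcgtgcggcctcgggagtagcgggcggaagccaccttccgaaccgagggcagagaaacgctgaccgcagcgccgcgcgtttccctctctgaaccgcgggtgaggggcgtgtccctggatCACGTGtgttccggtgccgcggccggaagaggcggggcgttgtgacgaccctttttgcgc
Rrn3 at chr16:13780449-13780698, plus strand: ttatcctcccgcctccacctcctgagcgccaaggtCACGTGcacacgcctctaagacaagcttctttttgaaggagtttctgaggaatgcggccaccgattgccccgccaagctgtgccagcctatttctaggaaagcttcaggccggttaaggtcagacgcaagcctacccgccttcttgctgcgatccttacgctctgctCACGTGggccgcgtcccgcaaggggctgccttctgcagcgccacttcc
Nop56 at chr2:130274162-130274411, plus strand: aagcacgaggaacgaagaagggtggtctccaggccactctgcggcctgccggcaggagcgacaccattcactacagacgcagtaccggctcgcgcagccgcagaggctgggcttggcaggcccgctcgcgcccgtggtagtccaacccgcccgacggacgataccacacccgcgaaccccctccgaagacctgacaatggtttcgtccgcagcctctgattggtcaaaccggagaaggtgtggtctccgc
The Ets letters CCGGAAG, searched on both strands, occurred in 12 of the 35 members (34.3%) and in 20.03% of the tested genes with a window. These matches describe letters and not bound sites.

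At 6 h after hepatectomy the nucleolar genes stood above undamaged liver almost throughout. Of the 39 members, 37 had a positive log2 difference and 2 a negative one (Tsr1 and Ddx10, both -0.10), and the median was 0.71, against 0.01 over all tested genes. With limma on log2(FPKM + 1), 11 members were called higher (adjusted p under 0.05 and a log2 difference of at least 1) and 0 lower. The background was 5.37% of 13162 genes called higher and 7.98% called lower. At an unadjusted p under 0.05, 25 members were higher and 0 lower, and voom on recovered reads called 13, all higher. The background shares above are for the limma calls, and none is given for these 2 rules. Both 6 h libraries lay above both undamaged libraries for 29 members, where 24.9% of all tested genes did so. In GENCODE M21 (GRCm38) the genes that lead the comparisons are annotated as protein-coding, with Nop56 (ENSMUSG00000027405) at chr2:130274430-130279313 on the plus strand, Nop58 (ENSMUSG00000026020) at chr1:59684971-59719044 on the plus strand, Mybbp1a (ENSMUSG00000040463) at chr11:72441355-72451768 on the plus strand. The same annotation places Nop2 (ENSMUSG00000038279) at chr6:125131909-125144753 on the plus strand, Npm1 (ENSMUSG00000057113) at chr11:33152287-33163206 on the minus strand and Dkc1 (ENSMUSG00000031403) at chrX:75095854-75109777 on the plus strand. The heat map of all members shows this as a red pair of columns.

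**Figure D1:**
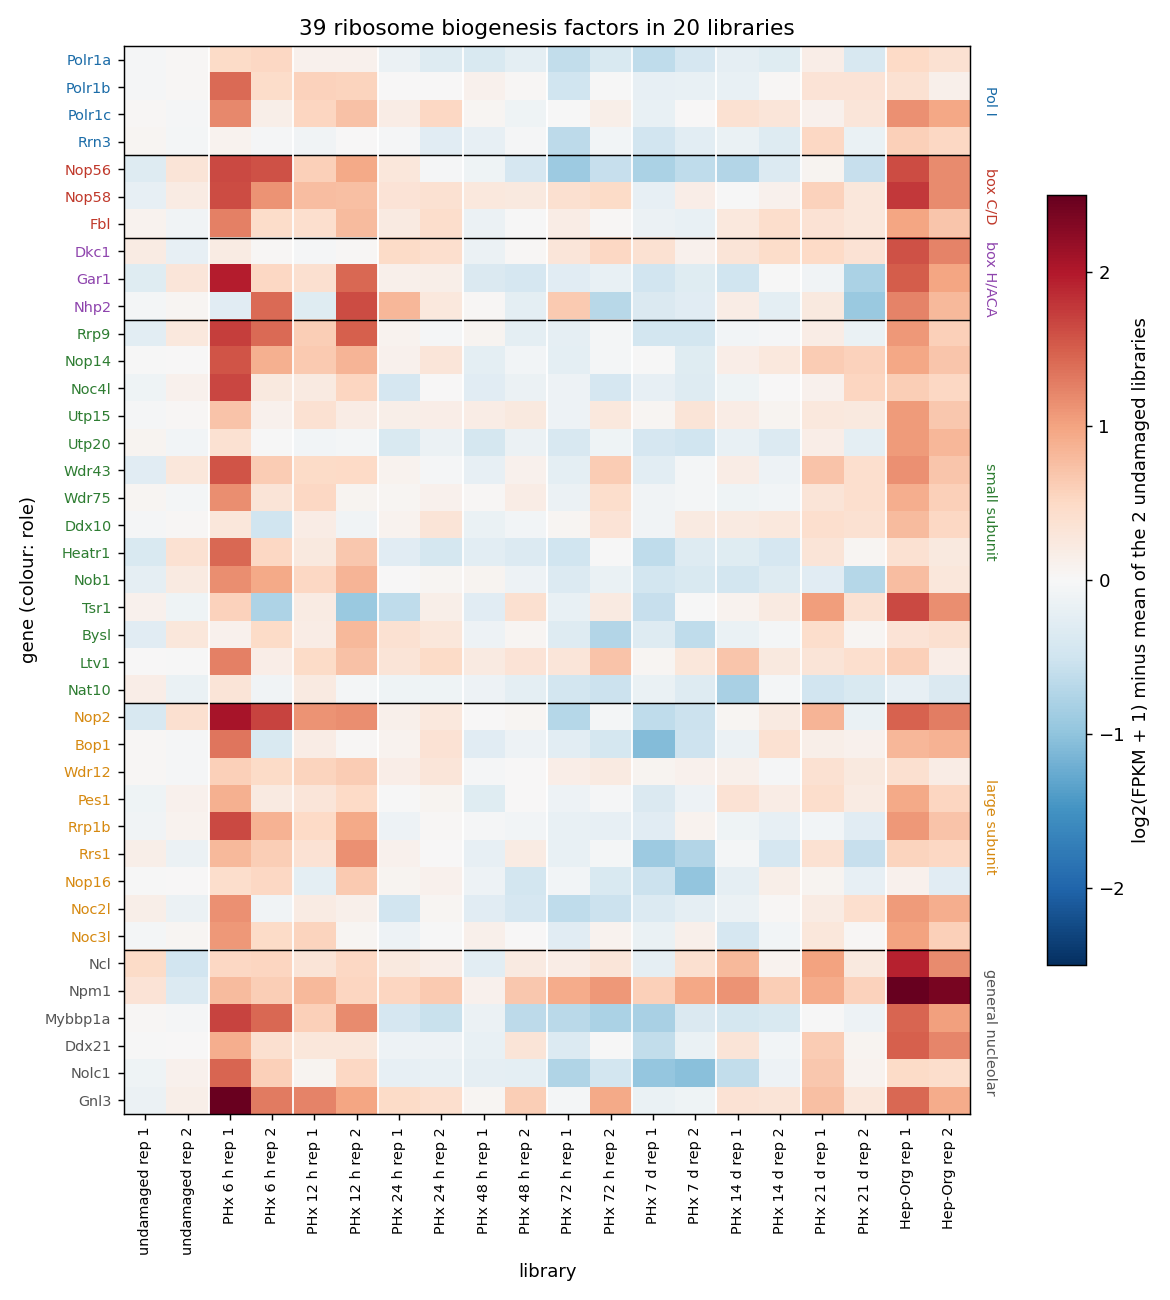
Heat map of the 39 members (rows, grouped and coloured by role) in the 20 libraries (columns); colour is log2(FPKM + 1) minus the mean of the 2 undamaged libraries, on a scale from -2.5 to 2.5. Red columns stand at 6 h, weaker ones at 12 h, and red again in both organoid libraries, with Npm1 the darkest there.

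The box C/D proteins, which form the snoRNPs that guide ribose methylation, had the highest class median at 6 h (1.38). Nop56, a scaffold protein of that complex, was at 5.58 and 9.28 FPKM in undamaged liver, 24.9 and 23.7 at 6 h, 11.4 and 14.9 at 12 h, 3.40 to 8.99 (median 4.82) in the 12 libraries from 24 h to 21 d, and 24.4 and 17.7 in organoids. Both 6 h libraries exceeded every other liver library, and the log2 difference from undamaged liver was 1.62 (SE 0.287, adjusted p = 0.00294). Its partner Nop58 followed from 1.31 and 2.05 in undamaged liver to 7.24 and 4.76 at 6 h, 3.54 and 3.47 at 12 h, 1.31 to 2.97 (median 2.20) later, and 8.04 and 4.99 in organoids. Here too the 6 h pair lay above all other liver libraries, with a log2 difference of 1.38 (SE 0.235, adjusted p = 0.00255). Fbl, the methyltransferase of the complex, was at 12.7 and 6.94 FPKM at 6 h against 5.06 and 4.43, a difference of 0.86 that was below the threshold of size (SE 0.238, adjusted p = 0.0244). Exons of 14 members overlap those of a protein-coding gene on the opposite strand, and since strandedness is not given, reads of such pairs cannot be told apart. Among the members called in a comparison these are Nop56 (with Idh3b), Mybbp1a (Spns2), Rrp1b (Hsf2bp), Rrp9 (Parp3), Gnl3 (Pbrm1), Heatr1 (Lgals8), Tsr1 (Srr) and Dkc1 (Mpp1).

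Among the general nucleolar proteins, 3 of 6 were called at 6 h. Mybbp1a, a nucleolar protein that binds Myb and takes part in ribosomal RNA processing, had the largest statistic of all members at 6 h and over the time course. It was at 9.58 and 9.23 FPKM in undamaged liver, 32.5 and 27.0 at 6 h, 14.7 and 22.7 at 12 h, 4.93 to 9.39 (median 6.73) from 24 h to 21 d, and 27.5 and 20.1 in organoids. The 6 h and 12 h libraries all exceeded the later ones, and the 6 h mean was 3.16 times the undamaged mean (log2 1.56, SE 0.256, adjusted p = 0.00213). Gnl3 (nucleostemin, a nucleolar GTPase of proliferating cells) was at 22.5 and 9.43 against 2.83 and 3.72, and Nolc1, a chaperone of snoRNPs, at 20.2 and 10.7 against 6.20 and 7.30. Their log2 differences were 1.88 and 1.03. The helicase Ddx21 (0.66), nucleolin Ncl (0.53) and nucleophosmin Npm1 (0.70) were not called.

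Of the 9 large-subunit factors, all 9 had positive differences at 6 h and 2 were called. Nop2, which methylates a cytosine of the large ribosomal RNA, was at 3.66 and 7.13 FPKM in undamaged liver, 24.8 and 18.8 at 6 h, 12.4 and 12.7 at 12 h, 2.77 to 10.1 (median 5.29) later, and 16.04 and 13.98 in organoids. The 4 libraries of 6 h and 12 h lay above all other liver libraries, and the 6 h mean was 4.04 times the undamaged mean (log2 1.87, SE 0.331, adjusted p = 0.00293). Rrp1b, with the lowest mean level of all members (1.15 FPKM), was at 0.621 and 0.811 in undamaged liver, 4.37 and 2.11 at 6 h, 1.41 and 2.29 at 12 h, 0.402 to 0.815 later, and 2.63 and 1.80 in organoids. Its 6 h difference was 1.25 (SE 0.249, adjusted p = 0.00543), and its 6 h and 12 h ranges overlapped. The PeBoW complex of Pes1, Bop1 and Wdr12, which matures the large subunit, had smaller differences of 0.55, 0.48 and 0.54. Bop1 was uneven at 6 h, with 20.2 and 5.37 FPKM against 7.51 and 7.15. Noc3l (0.78) and Rrs1 (0.71), along with Noc2l (0.53) and Nop16 (0.48), were not called. The mean levels over the 20 libraries were 8.64 FPKM for Pes1, 1.35 FPKM for Wdr12, 2.31 FPKM for Noc3l, 9.58 FPKM for Rrs1, 8.34 FPKM for Noc2l and 11.1 FPKM for Nop16.

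Of the 14 small-subunit factors, 12 had positive differences at 6 h and 4 were called. Rrp9, a protein of the U3 snoRNP at the core of the processome, was at 9.80 and 7.70 FPKM at 6 h against 1.71 and 2.91 in undamaged liver (log2 1.57). Nop14, a scaffold of the processome, was at 15.3 and 9.21 against 4.41 and 4.54 (1.23), and Wdr43 at 21.4 and 10.6 against 5.20 and 8.18 (1.10). Nob1, the nuclease that makes the final cut of the small-subunit RNA, was at 2.66 and 4.03 FPKM in undamaged liver, 8.66 and 7.26 at 6 h, 5.11 and 6.73 at 12 h, 1.61 to 3.48 (median 2.47) later, and 6.37 and 4.22 in organoids. Its 6 h pair lay above all other liver libraries, with a log2 difference of 1.06 (SE 0.224, adjusted p = 0.00751). The other small-subunit factors did not pass. Heatr1 (0.98), Noc4l (0.96), Wdr75 (0.75), Ltv1 (0.71), Utp15 (0.41), Bysl (0.30), Utp20 (0.18) and Nat10 (0.12) were all positive. Their mean levels over all libraries, with that of Ddx10, were 4.13 FPKM for Heatr1, 4.42 FPKM for Noc4l, 3.20 FPKM for Wdr75, 6.75 FPKM for Ltv1, 1.73 FPKM for Utp15, 3.94 FPKM for Bysl, 1.99 FPKM for Utp20, 2.91 FPKM for Nat10 and 3.41 FPKM for Ddx10.

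Neither the polymerase I nor the box H/ACA members were called at 6 h. Polr1a, the largest subunit of polymerase I, was at 1.79 and 1.90 FPKM in undamaged liver, 2.97 and 3.07 at 6 h, 0.822 to 2.18 (median 1.24) from 24 h on, and 3.01 and 2.71 in organoids. Its 6 h pair exceeded all other liver libraries, with a log2 difference of 0.50 (SE 0.185, adjusted p = 0.0770). Polr1b, its partner in the catalytic core, was at 8.20 and 3.71 against 2.39 and 2.52 (0.93, SE 0.254, adjusted p = 0.0232), under the threshold of size, and at 3.49 and 2.77 in organoids. Polr1c, a subunit shared with polymerase III, was at 13.1 and 5.74 against 5.25 and 4.92 (0.68, SE 0.271, adjusted p = 0.0989), so 1 of the 6 h libraries stood well above and the other just above. Rrn3, the factor that brings polymerase I to the ribosomal promoter, was at 4.12 and 3.72 against 3.999 and 3.660 (0.03, SE 0.235, adjusted p = 0.961), and its groups overlapped. Its promoter window holds 2 of the E-boxes printed above, whose part in its level was not tested. Among the box H/ACA proteins, whose snoRNPs guide pseudouridylation, Gar1 was at 15.6 and 5.08 against 2.45 and 4.18 (1.25, adjusted p = 0.0622). Nhp2 was at 12.4 and 42.1 at 6 h and 12.1 and 48.8 at 12 h against 14.7 and 15.6, so its replicates disagreed at both times. Dkc1, the pseudouridine synthase, gave 0.12.

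**Figure D2:**
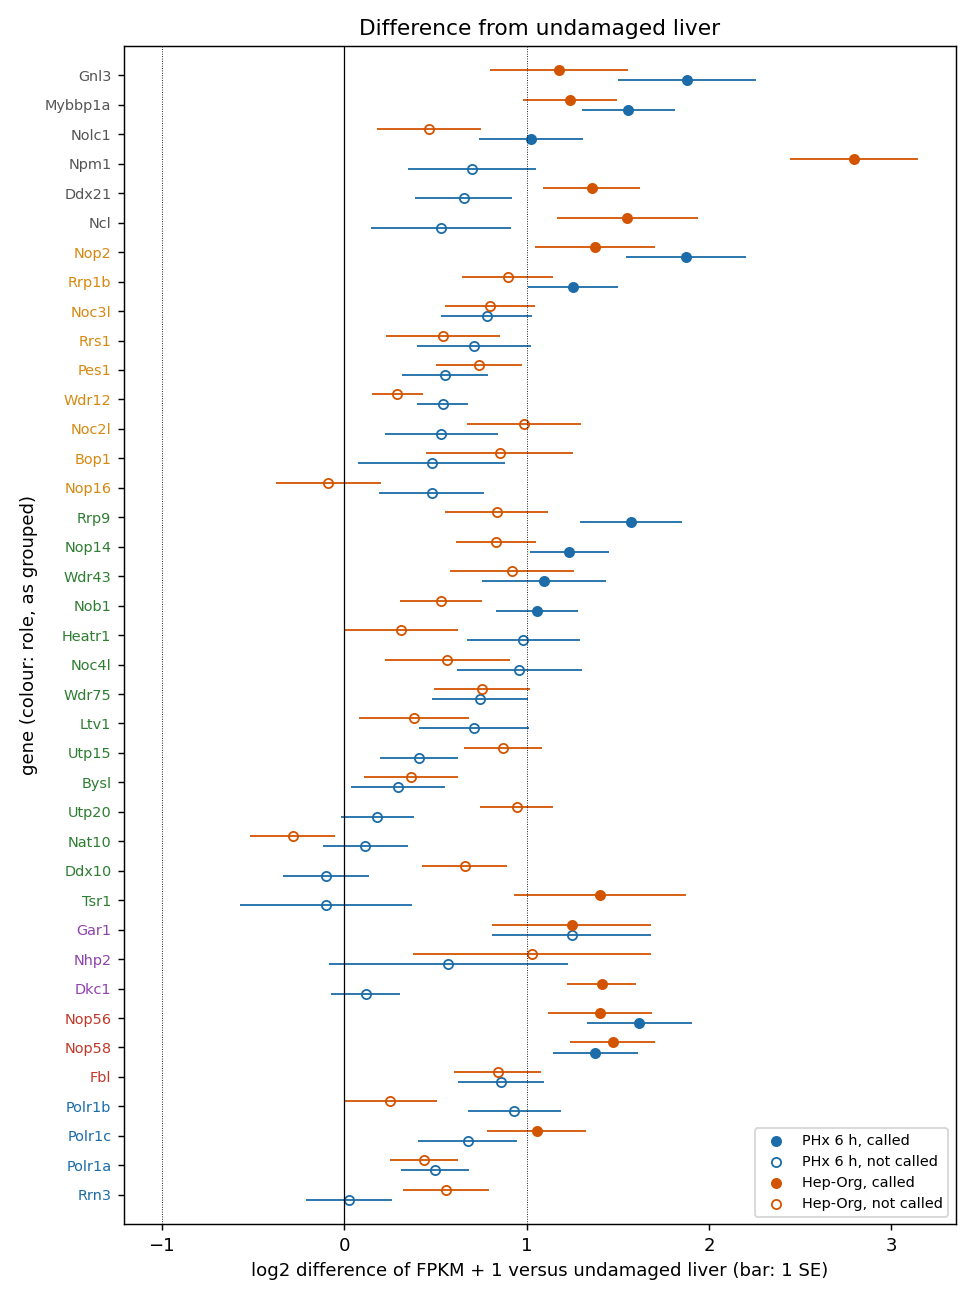
log2 difference of FPKM + 1 from undamaged liver (horizontal axis; bars, 1 SE) at 6 h after hepatectomy (blue) and in organoids (orange) for each member, coloured by role; filled circles passed the threshold. 11 members are filled at 6 h and 12 in organoids, and Npm1 reaches 2.80 in organoids.

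Markers of some cell types also differed between 6 h and undamaged liver. The summed hepatocyte markers were 69592 and 78334 FPKM in undamaged liver and 25536 and 37599 at 6 h, with 11 of 12 differences negative (median -0.96), Cps1 and G6pc called lower and Tat called higher. The summed stellate and fibroblast markers were 7.99 and 38.6 in undamaged liver and 75.1 and 101 at 6 h, with 10 of 11 differences positive and 5 called higher (Col1a1, Col3a1, Dcn, Acta2 and Ecm1), and at each later PHx time all 11 were positive. Of 5 tested erythroid genes 4, all globins, were called higher at 6 h and at 12 h. Summed macrophage markers at 6 h, 264 and 141, lay between the undamaged values of 41.4 and 1065. The part of these cell types in the members' levels was not tested.

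The 2 libraries of 6 h differed. The first was higher than the second for 34 of 39 members. It also held the highest summed erythroid (7089), neutrophil (849) and lymphocyte (27.6) markers of all liver libraries, against 581, 116 and 4.61 in the second, and the part of this in the members' levels was not tested. Without the first 6 h library 5 members were called, and without the second 22. Nop2, Nop56, Nop58, Mybbp1a and Rrp9 were called in all 20 fits that each left out 1 library. Rrp1b, Nop14, Gnl3, Nolc1, Nob1 and Wdr43 were lost without the first 6 h library, Nolc1, Nob1 and Wdr43 also without undamaged replicate 1, and Wdr43 without any of 6 further libraries. Nolc1 and Wdr43 were also lost without the filter on low values. FPKM sums differed widely, from 167676 in an organoid library to 988797 in an undamaged one. When all libraries were rescaled to the same sum, 3 members were called at 6 h (Nop2, Nop56 and Rrp9), and the median of the members stayed 0.70 above that of all genes.

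At 12 h the same list was still higher on balance, with 36 positive differences and a median of 0.49, but 1 member passed, against 1.71% of genes called higher and 3.85% lower. That member was Rrp9, at 3.97 and 8.17 FPKM against 1.71 and 2.91 (log2 1.05, SE 0.282, adjusted p = 0.0405), and the call ended in 12 of the 20 fits that left out 1 library, among them those without undamaged replicate 1 and without 12 h replicate 2. In voom on recovered reads Rrp9 was not called (1.46, adjusted p = 0.0542), and the 1 call was Nop58 (1.15, adjusted p = 0.0456). Nop2 was at 1.14 with an adjusted p of 0.0553. Wdr12 passed the p threshold and not the threshold of size (0.59, adjusted p = 0.0264).

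From 24 h to 21 d no member was called in limma or in voom on recovered reads. The shares of all genes called higher were 0.0684% for 24 h, then 0.228%, 1.15% and 0.289% for 48 h, 72 h and 7 d, and 0% for both later times, and those called lower were 0.16%, 0.463%, 2.07%, 0.319%, 0% and 0% in the same order. At an unadjusted p under 0.05 there were, in that order, 1, 0, 1, 1, 1 and 3 members higher and 0, 0, 3, 7, 0 and 1 lower. No share over all genes is given for this rule. The medians of the members were 0.07, -0.06, -0.15, -0.27, -0.04 and 0.32.

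The lowest group means lay at 7 d, which held the minimum of 19 members, with 8 more at 72 h. At 7 d, 32 of 39 differences were negative. Nolc1 had the largest, with 2.94 and 2.75 FPKM against 6.20 and 7.30 in undamaged liver (-1.01, SE 0.286, adjusted p = 0.188). Both 7 d libraries lay below both undamaged ones for 22 members, where 21.6% of tested genes did so. Npm1 went the other way at 29.3 and 38.2 against 24.6 and 14.8 (0.78, adjusted p = 0.414). The libraries of 48 h, 72 h and 7 d had Xist and the undamaged ones did not, so sex and time cannot be told apart here. The negative balance depended on scaling: with libraries rescaled to the same sum, the 7 d median of the members was 0.33, with 0.45 for all genes. The medians at 48 h, 72 h and 14 d changed sign likewise, to 0.07, 0.49 and 0.51. This scaling moved all genes. At 7 d the members' median was below that of all genes both rescaled and as deposited (-0.27 against -0.04).

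The 8 times were also compared with each other, without the undamaged libraries as a reference. The libraries of 48 h, 72 h and 7 d were those with Xist and without Ddx3y, so this comparison mixes sex with time. Those times held the lowest PHx mean of 6, 9 and 20 members, in that order. In the moderated F test of limma, 14 members changed over time (adjusted p under 0.05 and a range of group means of at least 1), against 13.6% of all genes. Of these 14, 13 had their highest mean at 6 h, where 5.41% of all genes were both called and highest at 6 h, and 1, Rrs1, at 12 h. Nop2, Nop56 and Mybbp1a had the widest ranges at 2.46, 2.36 and 2.29. Mybbp1a, Nop56 and Nob1 had the largest F (20.4, 16.4 and 12.6, adjusted p = 6.62e-04, 0.00130 and 0.00310). Polr1a and Polr1b also passed, with ranges of 1.025 and 1.194. The calls of Polr1b, Gnl3, Rrs1 and Heatr1 held in 4, 6, 7 and 7 of the 20 fits that left out 1 library. Over all members the highest PHx time was 6 h for 29, 12 h for 4, 21 d for 4, and 24 h or 72 h for 1 each (Dkc1 and Npm1). Without the first 6 h library 8 members were called, without the first 7 d library 9, and with equal sums 0.

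Liver at 6 h was further set against the 4 libraries of 14 d and 21 d. Here 11 members were called higher (background 8.66%) and 0 lower (background 8.12%), and 9 of them were also called against undamaged liver. Gar1 (1.59) and Heatr1 (1.07) joined, and Nop14 (0.82) and Wdr43 (0.80) did not pass. Nop56 had the largest difference, 2.01 (SE 0.248, adjusted p = 1.95e-04). Without the first 6 h library 6 were called and without the second 19, and with equal sums 5.

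**Figure D3:**
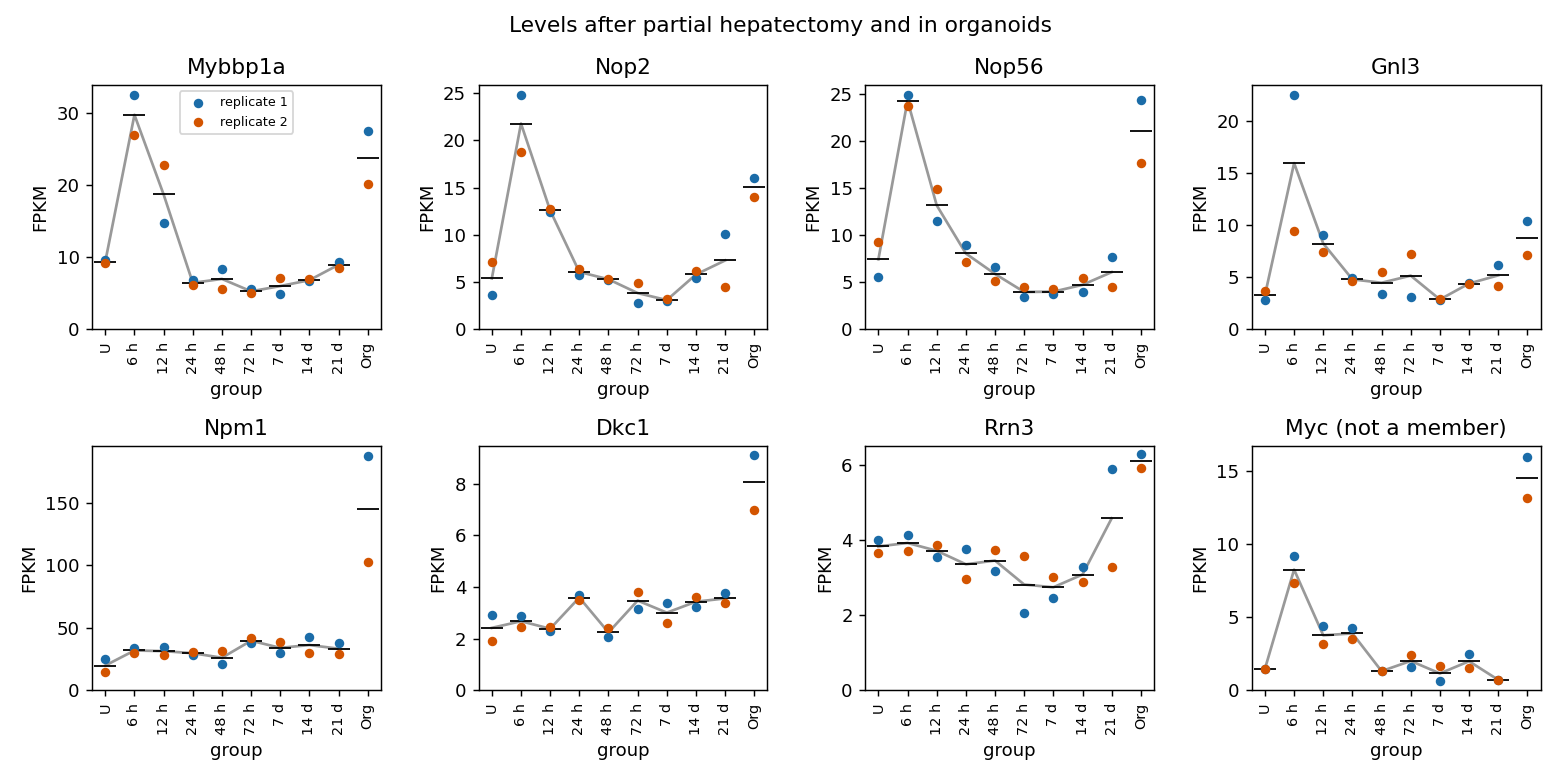
FPKM of 7 members and of Myc in each library (points, replicate 1 blue, replicate 2 orange; bars, group means; line, means of undamaged liver (U) and the 8 times; Org, organoids), each panel on its own axis from 0. Mybbp1a, Nop2, Nop56 and Gnl3 peak at 6 h and are high again in organoids, whereas Npm1 and Dkc1 are high in organoids and Rrn3 has no peak at 6 h.

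In organoids 12 members were called higher than in undamaged liver and 0 lower, against 10.6% of genes called higher and 13.8% lower. At an unadjusted p under 0.05, 27 members were higher and 0 lower, and voom called 16, all higher. The shares above are for the limma calls alone. The median difference was 0.84, with -0.03 over all genes, and 37 members were positive. Both organoid libraries lay above both undamaged ones for 36 members, where 33.9% of tested genes did so. The members took 0.328% and 0.255% of all FPKM in the organoids and at most 0.109% in liver. These shares were taken of unlike totals, 184765 and 167676 FPKM in the organoids and 326835 to 988797 in liver. The members' own summed FPKM was 606 and 428 in the organoids and 481 and 346 at 6 h, so these ranges overlapped. In the other liver libraries it was 156 to 356.

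Npm1, the nucleolar chaperone nucleophosmin and the most abundant member (mean 42.5 FPKM), led this comparison. It was at 24.6 and 14.8 FPKM in undamaged liver, 33.6 and 29.7 at 6 h, 34.2 and 28.2 at 12 h, 20.5 to 42.5 (median 31.0) from 24 h to 21 d, and 187 and 102 in organoids. Both organoid libraries exceeded all 18 liver libraries, and their mean was 7.35 times that of undamaged liver (log2 2.80, SE 0.350, adjusted p = 5.32e-05). Npm1 made up 30.8% and 24.0% of the summed FPKM of the members in organoids and 7.00% to 20.9% in liver. These shares compare genes on the FPKM scale, which is per length.

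Dkc1 was at 2.91 and 1.92 FPKM in undamaged liver, 2.89 and 2.46 at 6 h, 2.31 and 2.45 at 12 h, 2.05 to 3.81 (median 3.38) later, and 9.12 and 6.99 in organoids. The organoid pair lay above every liver library (log2 1.41, SE 0.189, adjusted p = 9.07e-05). Among the liver groups, both libraries of 24 h, 72 h, 14 d and 21 d lay above both libraries of undamaged liver, of 6 h and of 12 h. Nop58 gave 1.47 (SE 0.235, adjusted p = 3.77e-04) and Nop56 1.40. Ncl, at 37.1 and 22.0 against 13.1 and 6.22, gave 1.55, and Ddx21, at 20.3 and 16.8 against 6.60 and 6.62, gave 1.36. Tsr1, a late factor of the small subunit, was at 9.17 and 6.27 against 2.49 and 2.04 (1.40). Nop2 (1.38), Gar1 (1.25), Mybbp1a (1.24), Gnl3 (1.18) and Polr1c (1.06) completed the called members. Polr1c was at 12.4 and 11.0 FPKM against 5.25 and 4.92 (SE 0.271, adjusted p = 0.00909), and Rrn3 at 6.30 and 5.91 against 3.999 and 3.660 (0.56, SE 0.235, adjusted p = 0.0840). Nat10, which acetylates the small-subunit RNA, was the 1 member below both undamaged libraries, at 2.81 and 2.44 against 3.92 and 2.95 (-0.28, adjusted p = 0.375).

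The organoid calls were less stable for some genes than for others. Npm1, Dkc1, Nop58, Nop56, Ddx21 and Mybbp1a were called in all 20 fits that left out 1 library. Nop2 was lost without undamaged replicate 1, Polr1c without organoid replicate 1, Ncl without undamaged replicate 2 or organoid replicate 1, and Gnl3 without any 1 of these 3. Tsr1 was lost without any of the 4 libraries compared and Gar1 in 12 of the 20 fits. Neither Tsr1 nor Gar1 was called in voom on recovered reads, and Tsr1, Gar1 and Gnl3 were lost without the filter on low values. Without organoid replicate 1, which was the higher for 37 of 39 members, 7 members were called. With equal sums all 39 were called, but the median of all genes then moved to 1.34, 7649 genes were called higher and 748 lower (1393 and 1817 as deposited), and the median of the members stood 1.18 above it.

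Organoids and 6 h liver were compared directly, since both stood above undamaged liver. Of the 39 members 19 were higher and 20 lower in organoids, with a median of -0.02. Of these, 3 were called, all higher (background 11.1% higher and 13.8% lower), namely Npm1 (2.10, SE 0.350, adjusted p = 5.93e-04), Dkc1 (1.29, SE 0.189, adjusted p = 2.21e-04) and Tsr1 (1.502, adjusted p = 0.0251). The 6 h replicates of Tsr1 were uneven, at 3.84 and 0.905 FPKM (ratio 4.24), against 9.17 and 6.27 in organoids. Utp20, a large processome protein, passed the p threshold and not the size: it was at 5.15 and 4.28 FPKM in organoids, 2.84 and 1.93 at 6 h, 2.12 and 1.81 in undamaged liver, 1.83 and 1.87 at 12 h and 1.11 to 2.31 later (0.77, SE 0.200, adjusted p = 0.00981). For 8 members both organoid libraries exceeded all liver libraries, as for 14.9% of tested genes: Npm1, Dkc1, Utp20, Tsr1, Ncl, Ddx21, Ddx10 and Rrn3. For 10 members both organoid libraries lay below both of 6 h, where 34.6% of tested genes did so. The lowest point estimates were those of Rrp9 (-0.74, adjusted p = 0.0581), Gnl3 (-0.70) and Polr1b (-0.68), none of which passed, and for Gnl3 the libraries of both groups overlapped. Without either 6 h library 6 members were called, and with equal sums 34, when the median of all genes was 1.33 and that of the members 1.60.

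**Figure D4:**
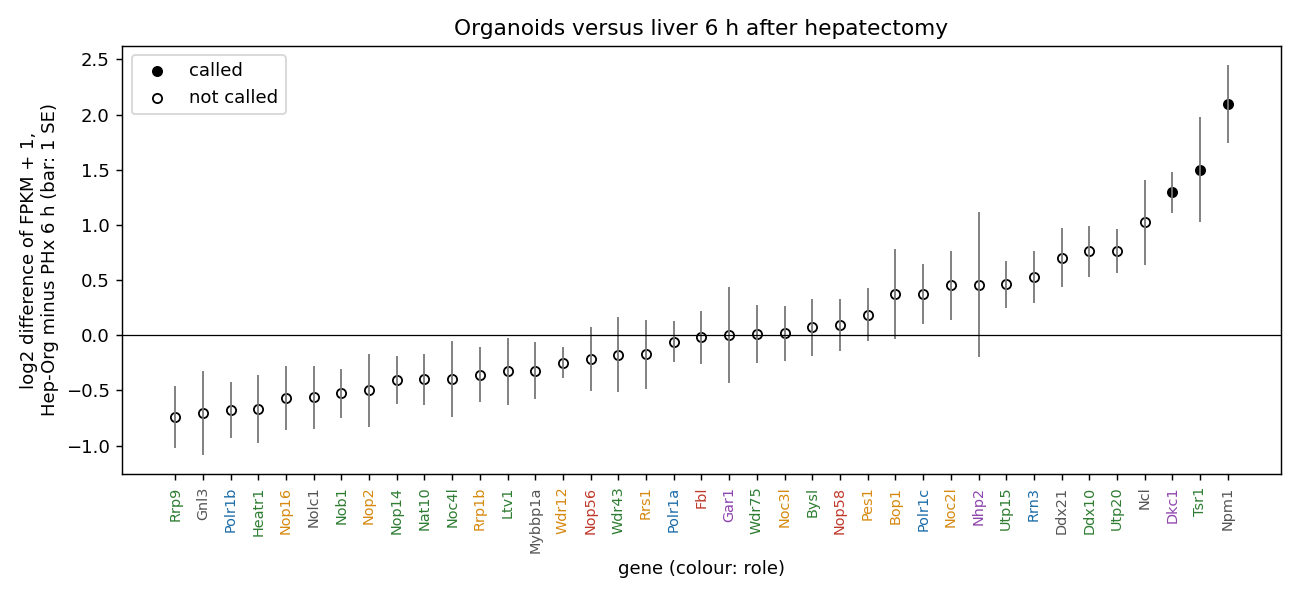
log2 difference of FPKM + 1 between organoids and 6 h liver (vertical axis; bars, 1 SE) for the 39 members in rising order, coloured by role; filled circles passed the threshold. The 3 filled circles, Dkc1, Tsr1 and Npm1, lie at the right end, and Rrp9 is the lowest at -0.74.

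Myc, which is not a member, was at 1.45 FPKM in both undamaged libraries, 9.14 and 7.33 at 6 h, 4.37 and 3.12 at 12 h, 4.28 and 3.47 at 24 h, 0.650 to 2.43 from 48 h to 21 d, and 15.9 and 13.1 in organoids. It was called higher at 6 h (log2 1.90, SE 0.244, adjusted p = 5.40e-04) and in organoids (2.66, SE 0.244, adjusted p = 3.50e-06). Of the members with an E-box in the promoter window 3 of 8 were called at 6 h, and 8 of 27 of those without it, with medians of 0.63 and 0.75. In organoids the counts were again 3 of 8 and 8 of 27, with medians of 0.93 and 0.83. This difference was not tested.

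Some members are also hosts of snoRNA genes. Of the 39, 7 (17.9%) hold annotated snoRNA genes on their own strand, 21 in all, against 204 of 11112 tested protein-coding genes (1.84%). These hosts are Nop56, Nop58, Ncl, Wdr43, Gnl3, Tsr1 and Dkc1. At 6 h 4 of the 7 were called (median 1.10), and in organoids 6 (median 1.40), with 7 and 6 of the other 32. Over all tested genes, 5.37% were called higher at 6 h and 10.6% in organoids. Annotated snoRNA genes overlap exons of Nop56, Nop58, Ncl and Gnl3 on the same strand. Neither this split nor the part of snoRNA reads in these levels was tested.

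Other genes of the pathway were taken from lists written for this comparison. Over all 13162 tested genes, the shares called higher than in undamaged liver were 5.37% at 6 h, 1.15% at 72 h and 10.6% in organoids. Between organoids and 6 h liver, 11.1% were called higher and 13.8% lower. Of 89 other ribosome biogenesis factors, 18 were called higher at 6 h and 0 lower (median 0.48), led by Gnl2 (1.98), Nufip1 (1.17) and Ppan (2.46), and 7 were called higher in organoids (median 0.44), among them Utp4 (1.79). Between organoids and 6 h liver, 4 of the 89 were called higher and 8 lower. In both organoid comparisons the counts of the 89 lay below the shares over all genes. Of 12 other polymerase I factors, 3 passed at 6 h (Polr1e, Cd3eap and Taf1a) and 2 in organoids (Cd3eap and Taf1d). Of 13 tested exosome genes, which degrade processed fragments, 1 passed in each comparison (Exosc1 at 6 h, Mphosph6 in organoids). Of 78 cytosolic ribosomal proteins, the products that these factors assemble, 4 were called at 6 h (median 0.46) and 46 in organoids (median 1.49). The 16 proliferation genes had a median of 0.10 at 6 h, 1.90 at 72 h (3 called) and 1.60 in organoids (6 called).

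The members did not all follow 1 course. Each member's log2(FPKM + 1) was standardized over the 20 libraries, and Spearman's rho was taken between a member and the mean of the rest. It was highest for Nop14 (0.94), Nop2 (0.92) and Pes1 (0.90), and lowest for Npm1, Dkc1 and Nat10 (0.21 each). These are descriptions over libraries that share groups and scaling. Ratios between members moved too. Nop58 was 0.234 and 0.221 of Nop56 in undamaged liver and 0.291 and 0.201 at 6 h. This ratio was 0.732 and 0.600 at 72 h and 0.330 and 0.282 in organoids. Npm1 was 1.88 and 2.38 times Ncl in undamaged liver and 5.04 and 4.66 times in organoids.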

How the data were processed

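RNA sequencing of 20 libraries was deposited by the authors as 1 table of FPKM values. Reads were aligned with HISAT2 2.0.5 to mm10, per the submitters' processing notes. For the counting tool, annotation, strandedness and scaling method, the sources used here give nothing. The column of undamaged replicate 1 differs from its label by 1 look-alike letter. Symbols (54409 identifiers), exon lengths (54495), positions and overlaps came from GENCODE M21 (GRCm38). FPKM times exon length gave whole reads for 97.9% to 98.8% of low values (tolerance 0.05 reads), and these recovered reads were used only in an alternative, because the deposited FPKM were already scaled between libraries (0.994 to 1.034 of the median-ratio scale).

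The 13162 genes that reached an FPKM of 1 in 2 or more libraries were fitted as log2(FPKM + 1) with limma 3.58.1 in R 4.3.3, with 1 mean per group over all 20 libraries, trend and robust variances, 10 residual and 3.11 prior degrees of freedom. Fold changes on this scale understate changes of low genes. P-values were Benjamini-Hochberg adjusted within a comparison over all genes, two-sided; a call needed a log2 difference of 1 or more in size (time course: range) besides an adjusted p under 0.05. The comparisons with undamaged liver share its 2 libraries. The fit was tested on simulated data. Replicate numbers did not pair samples, so no block was used.

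The members and lists were chosen with earlier results of these data known. Full values were given for the 3 members with the largest statistic at 6 h, in organoids versus undamaged or 6 h liver, and over time. The members of highest and lowest mean and Myc were treated likewise. The polymerase I members were given in undamaged, 6 h and organoid libraries, and Polr1a also from 24 h on. Other lists name up to 3 genes by statistic. Saa1, Xist, Ddx3y and further values of single members were added after they were seen. Python 3.11.15, numpy 2.4.6, pandas 2.3.3, scipy 1.17.1 and matplotlib 3.10.9 made summaries and plots. Alternatives were another pseudocount (0.1), no filter, 2 other scalings, replicate blocks, plain variances, no size threshold, voom on recovered reads and leaving out each library.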

Additional observations from a re-analysis of the deposited data

How the results depend on the processing

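Rescaled to equal FPKM sums, the counts of called members were 3 at 6 h, 0 at 12 h, 5 for 6 h versus 14 d and 21 d, 39 in organoids, 34 for organoids versus 6 h and 0 over time. At 12 h the single call was also lost (0) without a filter and with either replicate block, and voom called Nop58 in place of Rrp9. With adjusted p alone the counts were 2 at 12 h, 17 for 6 h versus 14 d and 21 d, 23 in organoids and 5 for organoids versus 6 h. With voom on recovered reads 5 members were called for organoids versus 6 h. The cause was not tested. Leaving out 1 library each gave 5 to 22 at 6 h, 0 to 2 at 12 h, 6 to 19 for 6 h versus 14 d and 21 d, 7 to 14 in organoids, 2 to 6 for organoids versus 6 h and 8 to 18 over time, and 0 at 24, 48 and 72 h and 7, 14 and 21 d. The number of all genes called varied over these fits as well, so the changes in count are not particular to the members. Where a fit left 1 library in a group, that library was assumed to vary like the other groups. No called direction reversed in any alternative run. Same-numbered libraries were not paired: the correlation of their deviations ran from -0.381 to 0.472 over 28 pairs of times (median -0.115, 4 above 0.1). The replicate block by number gave 10 members at 6 h, 11 in organoids and 10 over time; the block by submission gave 10, 11 and 10. With either block the member not called at 6 h was Wdr43. Precision is limited by 2 libraries per group.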
